A study of Hormonema carpetanum with 4 samples.

Results

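The temperature comparison set a culture of the mutant grown at 19 °C against a culture of the same mutant grown at 25 °C, both sampled at day 18 of fermentation. The mutant is ENF-5-29, a strain of Hormonema carpetanum from a mutagenesis programme, and the species is a mould whose product enfumafungin, a glycosylated triterpene, blocks the synthase of beta-1,3-glucan in fungal cell walls. Mycelium was taken from stationary-phase fermentation broth, and transcript abundance was deposited as TPM, a unit that divides reads by gene length and scales each library to 1000000. The series also held the mutant and the wild type ATCC 74360 at day 14, whose labels carry no temperature. Their values are given here as context, and they also entered the factors of the rescaling described below. The extraction protocol speaks of 18 days for both strains, while the titles give day 14 for that pair. Both libraries compared here share the mutant genotype, so the comparison holds the strain fixed and says nothing of the mutations. Each temperature had 1 library, so no spread between cultures is known, no test was run, and a difference is described by its size alone.

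Genes below 1 TPM at both temperatures were set aside, which left 9064 of the 10951 genes in the table. A gene was called higher or lower when log2(TPM + 1) differed by 1 or more, that is by 2-fold, while quoted folds are plain ratios of TPM. Where a pair of values is written as one against the other, the first is the 19 °C library and the second the 25 °C library. By this measure 989 genes, 10.9% of those tested, were higher at 19 °C and 1942 genes, 21.4%, were lower, so that 32.3% were called in either direction. The median log2 difference of all tested genes was −0.21, and its middle quartiles ran from −0.87 to 0.44. Median-ratio rescaling took its factors from all 4 libraries, over the 7805 genes at 1 TPM or more in each. It moved differences up by 0.193 for abundant genes and by less for low ones, where the pseudocount weighs more. After rescaling, 1318 genes (14.5%) were higher and 1584 (17.5%) lower, and the share of called genes that were higher went from 33.7% to 45.4%. The excess of lower calls in the whole table therefore depends in part on the scale, and each functional group is read below against the table as a whole. The read depth behind a TPM value is unknown, so the counting error of each value is unknown too.

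**Figure D1:**
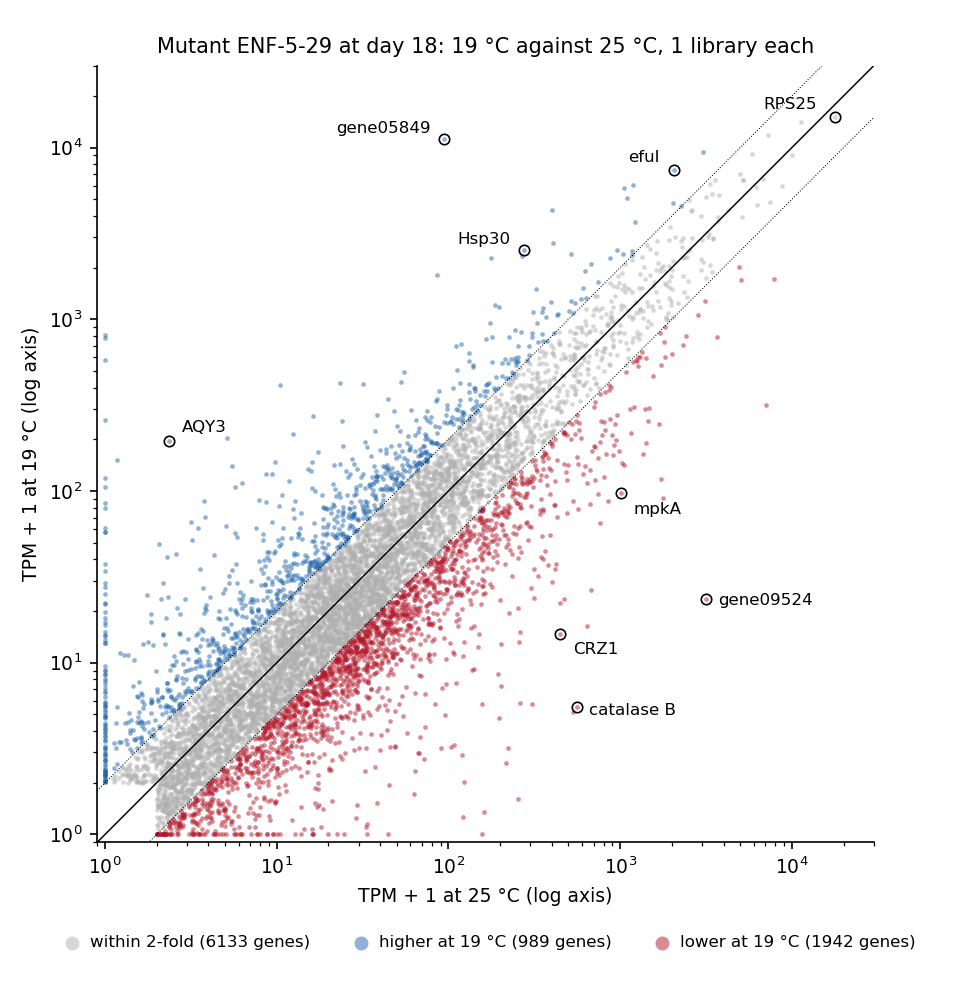
Abundance of the 9064 tested genes at 25 °C (horizontal) and 19 °C (vertical), as TPM + 1 on log axes, 1 library each. The solid line marks equality and the dotted lines 2-fold; blue points (989) are higher and red points (1942) lower at 19 °C, and circled genes are described in the text.

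Filamentous fungi sense stress at the cell surface through linked pathways. In the cell wall integrity pathway, surface sensors activate the GTPase Rho1, which drives both glucan synthase and a cascade of MAP kinases. Calcium that enters the cell activates the phosphatase calcineurin, which switches on the transcription factor Crz1, known in yeasts and moulds for raising genes of calcium pumps and wall enzymes. Growth of a hypha depends in turn on nuclear division, on microtubule and actin transport to the tip, and on chitin and glucan synthesis there.

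The annotation allowed a partial check of the labelled tissue. Septins, which form rings and bars at septa and tips of hyphae, were detected in both libraries, and the 6 tested septin genes differed by less than 2-fold, as did spn4 (gene10800), with 237 TPM at 19 °C against 175 TPM at 25 °C. Of the regulators of conidia, asexual spores, abaA (gene06725) stood at 4.55 TPM at 19 °C against 1.89 TPM at 25 °C. The regulator wetA (gene02208) stood at 0 and 0.06 TPM, so both of these regulators were near the floor at both temperatures. In the whole conidiation and spore wall list, 0 of 10 tested genes were higher and 2 lower, or 1 and 1 after rescaling. All tested genes had 10.9% higher and 21.4% lower before rescaling. A conidiation-specific protein 10 hit (gene06873) was abundant in both, at 924 TPM at 19 °C against 635 TPM at 25 °C. In bulk RNA of this kind, fewer cells of a type and less RNA per cell cannot be told apart.

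Of the 11 themes into which the lists fall, the proliferation machinery held the largest share of genes lower at 19 °C. Lists were drawn by best-hit names and overlap, so that a gene can sit in more than 1. The kinetochore and spindle list and the actin list were made after values had been seen, and the theme counts include both. Across the 9 proliferation lists together, 108 of 246 tested genes (43.9%) were lower and 9 (3.66%) higher, against 21.4% and 10.9% of all tested genes, and the median was −0.85. Among 85 tested cell cycle genes 4 were higher and 43 lower at 19 °C, with a median log2 difference of −1.04; after rescaling the counts were 5 and 38. Among 22 kinetochore and spindle genes 1 was higher and 16 were lower, with a median of −1.33. Both medians stayed below 0 after rescaling, at −0.84 and −1.16.

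Regulators that drive the cell into and out of mitosis were mostly lower at 19 °C. Cyclin-dependent kinase 1 (gene09757), the engine of the division cycle, stood at 25.8 TPM at 19 °C against 96.2 TPM at 25 °C, a 3.73-fold difference. Its mitotic partners cyclin-B (gene10851) and cyclin-4 (gene10501) stood at 16.9 against 114 TPM and at 4.14 against 25.8 TPM. The kinases wee1 (gene00881), which restrains entry into mitosis, and nimA (gene04695), which promotes it, were both low at 19 °C, at 3.90 against 22.2 TPM and 0.94 against 10.1 TPM. Exit factors showed the same direction. The CDC20 homologue slp1 (gene06671), which activates the anaphase-promoting complex, stood at 1.22 against 16.3 TPM, and the phosphatase cdcA (gene00091), a CDC14 relative that reverses mitotic phosphorylation, at 12 against 101 TPM, an 8.44-fold difference. The G1 cyclin CCN1 (gene09602) stood at 27.2 against 109 TPM, the same direction as the mitotic cyclins. Of the 4 cell cycle genes higher at 19 °C, cdc4 (gene01757), which marks cell cycle proteins for destruction, stood at 121 against 37.4 TPM, a 3.25-fold difference in the other direction.

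Genes for the structures on which chromosomes move were lower as well. Of 17 tubulin, kinesin and dynein genes none was higher and 10 were lower, or 0 and 8 after rescaling. Of all tested genes 10.9% were higher and 21.4% lower before rescaling. The lower genes included the mitotic kinesin bimC (gene09491) at 3.22 against 17.9 TPM and kinesin heavy chain (gene05821), a vesicle motor, at 7.76 against 36.4 TPM. Alpha-tubulin (gene07683) stood at 306 against 699 TPM, whereas beta-tubulin (gene00352) differed by less than 2-fold, at 304 against 424 TPM. The spindle midzone protein ase1 (gene10336) stood at 3.95 against 30.9 TPM and the kinetochore subunit spc24 (gene06159) at 6.77 against 33.05 TPM. Checkpoint kinase bub1 (gene00721), which delays anaphase until chromosomes attach, was 4.05-fold lower at 19 °C, at 8.02 against 32.5 TPM, while its fellow checkpoint protein mad2 (gene03059) was 2.14-fold higher, at 53.02 against 24.8 TPM. The spindle checkpoint therefore held genes called in opposite directions. Of 11 condensin and cohesin genes 8 were called lower, led by condensin subunit 3 (gene10488) at 10.4 against 47.4 TPM, and 6 after rescaling. In this list 10 genes had a difference below 0, while the median of all tested genes was itself −0.21.

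DNA synthesis genes were lower for a large share of their list, and repair genes for a smaller share, against 21.4% of all tested genes. In DNA replication, 19 of 35 genes (54.3%) were lower and 1 higher, with a median of −1.12, and after rescaling 16 were lower and 1 higher. The licensing helicase subunits mcm2 (gene00245) and mcm5 (gene10631) stood at 12.3 against 46.8 TPM and 4.36 against 29.3 TPM, and DNA ligase 1 (gene10892), which seals newly made strands, at 11.1 against 52.98 TPM. In repair, 23 of 74 (31.1%) were lower and 3 higher, or 18 and 3 after rescaling, when 17.5% of all tested genes were lower. Lower repair genes included, from those that act at breaks in DNA, poly [ADP-ribose] polymerase 2 (gene10300) at 18.5 against 223 TPM, DNA polymerase lambda (gene07334) at 7.32 against 68.7 TPM, the Ku70 relative gene02865 at 16 against 80.05 TPM, and the RAD52 relative rhm52 (gene03427) at 32.5 against 124 TPM. The endonuclease III homologue (gene09236), which cuts out oxidised bases, was higher at 19 °C, at 17.7 against 7.97 TPM.

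Core histones and actin had fewer called genes. Of 7 tested histone genes none was higher and 2 were lower, H2B (gene05347) at 1062 against 2845 TPM and H2A (gene05346) at 489.6 against 1087 TPM, while H3 (gene01011) and H4.1 (gene01010) were above 0 on the log2 scale, at 1538 against 963 TPM and 1618 against 986 TPM. The median of the histone list changed sign under a filter at 10 TPM, so its direction is not read. Among 18 genes for actin and its nucleation 1 was higher and 1 lower, with a median of 0.38. The higher one was cofilin (gene05419), which severs actin filaments, at 1527 TPM at 19 °C against 603 TPM at 25 °C. Of the 7 subunits of the Arp2/3 complex, which starts branched filaments, 6 lay above 0 and none was called. Profilin (gene08468) differed little, at 620.1 against 537 TPM. After rescaling 3 actin genes were higher and 1 lower.

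Abundance differences also tracked the size of the encoded protein, which touches several of the groups described here. Gene lengths are not in the table, so size was read from names. Of 18 tested genes for proteins known to be very long none was higher and 11 were lower, with a median of −1.23, and of 52 genes for proteins known to be very short 11 were higher and none lower, with a median of 0.31. Among 54 genes whose best-hit name states a mass, the median was 0.43 for 6 genes under 15 kDa, 0.27 for 21 genes from 15 to 30 kDa, 0.01 for 12 genes from 30 to 60 kDa and −1.10 for 15 genes of 60 kDa or more, of which 9 were lower. These mass classes also differ in protein family. Many genes of the heaviest class are heat shock 70 kDa hits, some near the floor, such as gene10401 at 0.04 against 1.23 TPM. Most genes of the lightest class are subunits of respiratory complex I. The RNA polymerases, whose subunits are needed together, showed the same order by size. All 5 of the largest RNA polymerase subunits tested lay below 0, 4 of them called lower, while the small subunits RPB11 (gene02318) and the 10-like gene01575 were higher at 19 °C, at 125 against 52.1 TPM and 79.5 against 27.2 TPM. Kinesins, kinases, chromatin remodellers and chitin synthases are mostly large proteins, and the part of size in the results for those lists was not tested. Nor was it tested for the calcium genes, the glucan genes or the spindle checkpoint genes described in other paragraphs.

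**Figure D2:**
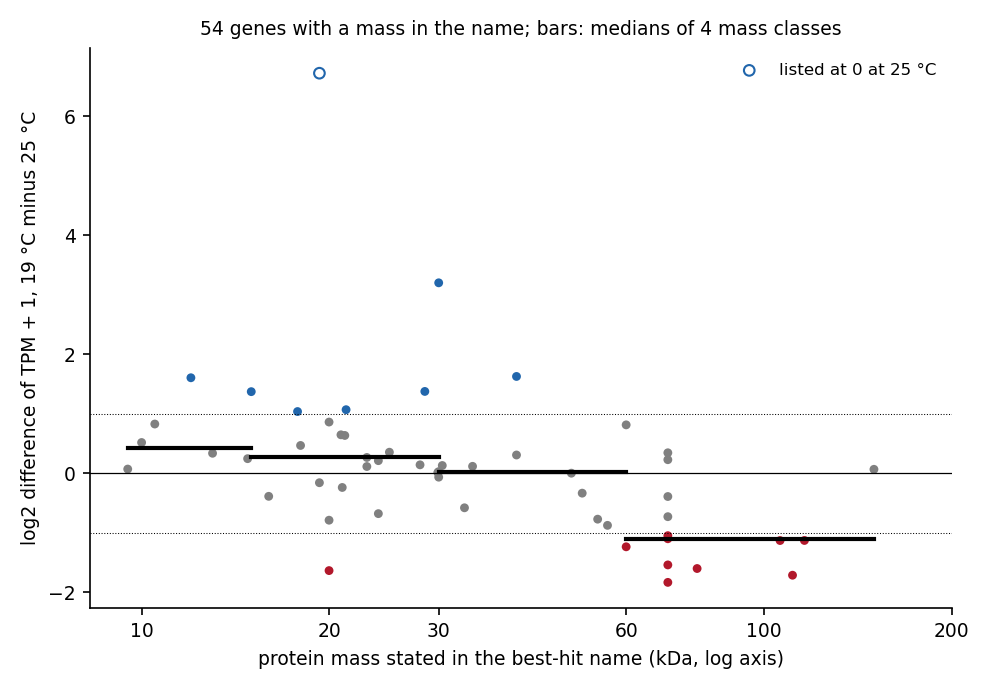
Log2 difference of TPM + 1 (19 °C minus 25 °C) against the mass in kDa stated in the best-hit name, for 54 genes. Points are genes, coloured blue or red where called, and bars are class medians, which run from 0.43 for the smallest class to −1.10 for the largest; the open circle is listed at 0 at 25 °C.

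Calcium handling held some of the widest differences among regulators. Among 27 tested calcium genes 2 were higher and 12 lower at 19 °C, against 10.9% and 21.4% of all tested genes. Their median log2 difference was −0.54, and after rescaling 3 were higher and 11 lower. The transcription factor CRZ1 hit gene07846 stood at 13.8 TPM at 19 °C against 447 TPM at 25 °C, a 32.4-fold difference, with 3.15 TPM in the mutant and 0.72 TPM in the wild type at day 14, so that its 25 °C value was the highest of the 4 libraries. A second hit to the same factor, crzA (gene04235), stood at 40.8 against 118 TPM. The list of calcium genes was drawn up after values of this comparison had been seen.

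The proteins that remove calcium from the cytosol shared that direction. All 8 tested calcium pumps and vacuolar calcium transporters were lower at 19 °C, against 21.4% of all tested genes, and 7 of them stayed so after rescaling. The direction was not particular to calcium. In the overlapping list of P-type ion pumps, which move calcium and other ions, 10 of 16 tested genes were lower and 0 higher. Calcium-transporting ATPase 2 gene08022 stood at 1.90 TPM at 19 °C against 119 TPM at 25 °C, a 62.5-fold difference, and its relative gene00338 at 81.4 against 414 TPM. The pump of the sarcoplasmic and endoplasmic reticulum type (gene02512) stood at 13.9 against 63.9 TPM and calcium-transporting ATPase 1 (gene00788) at 11.7 against 37.9 TPM. The 4 vacuolar transporters exchange calcium for protons. The most abundant of them, gene07236, stood at 218 TPM at 19 °C against 1156 TPM at 25 °C, and the others at 50.3 against 179.8 TPM (gene07108), 109 against 267 TPM (gene01668) and 38.9 against 83.03 TPM (gene03251). No pump or exchanger was higher at 19 °C.

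Calcium entry and the sensors that read it did not all follow the pumps, and the part of protein size in this contrast was not tested. The channel cch1 (gene07360), which admits calcium at the plasma membrane, stood at 6.14 against 16.7 TPM. Calcineurin subunit B (gene04517), part of the phosphatase that acts on Crz1, was on the other side of equality at 131 against 84.05 TPM, and the sensor NCS-1 (gene01029) likewise at 396 against 273 TPM, both within 2-fold. Kinase cmkA (gene03684) was within 2-fold too, at 195.2 against 285 TPM. The kinase hit gene01070 was at 14.1 TPM at 19 °C and listed at 0 at 25 °C. A gene with a calmodulin best hit and calcium-binding domains (gene06311) was 3.73-fold higher at 19 °C, at 72.99 against 19.6 TPM; its table entry also carries a fungal transcription factor domain, so its identity is uncertain.

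**Figure D3:**
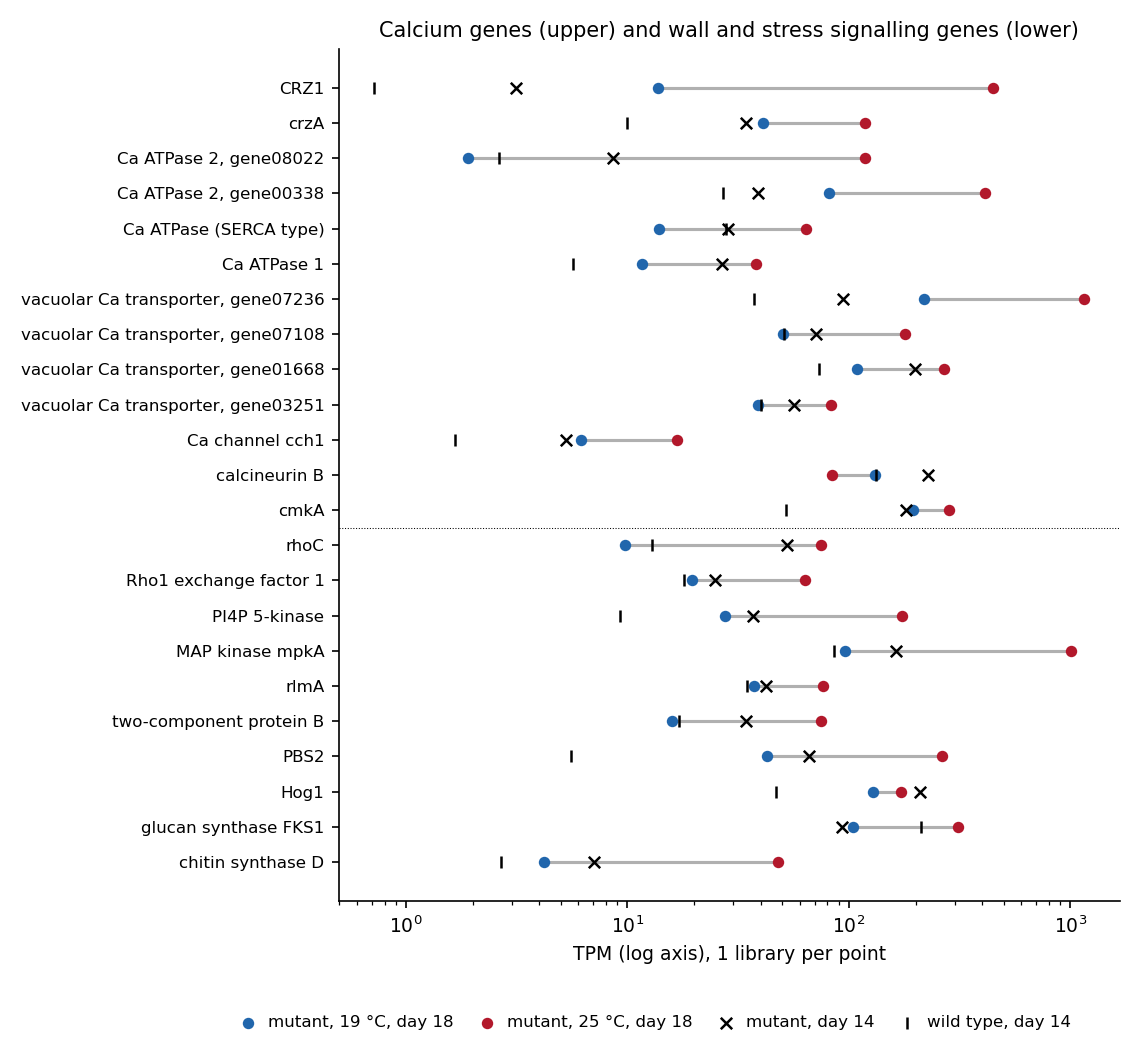
TPM (log axis) of calcium genes (upper block) and of wall and stress signalling genes (lower block) in the 4 libraries, 1 library per point. Grey lines join the mutant at 19 °C (blue) and 25 °C (red) at day 18; crosses are the mutant and ticks the wild type at day 14. CRZ1 runs from 13.8 to 447 TPM and mpkA from 96.3 to 1005 TPM, while calcineurin B lies the other way.

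The list of MAP kinase pathways joins the wall, osmotic and pheromone branches, and it also holds cell cycle regulators such as CDK1 and wee1. It was made after values had been seen. Of 60 tested members 2 were higher and 32 lower at 19 °C, with a median log2 difference of −1.12, and after rescaling 4 were higher and 29 lower, against 10.9% and 21.4% of all tested genes before rescaling. In the wall integrity branch, mpkA (gene07743), its terminal MAP kinase, stood at 96.3 TPM at 19 °C against 1005 TPM at 25 °C, a 10.4-fold difference, with 163 and 85.2 TPM in the mutant and wild type at day 14. The Rho1 exchange factor gene08851, which loads Rho1 with GTP, stood at 19.5 against 63.1 TPM, and the phosphatidylinositol 4-phosphate 5-kinase gene01877, which makes the lipid that recruits it, at 27.6 against 174 TPM. The GTPase rhoC (gene02038) stood at 9.71 against 74.5 TPM, whereas a rhoA hit (gene09721) was 3.67-fold higher at 19 °C, at 27.8 against 7.56 TPM. The transcription factor rlmA (gene02917), a target of the terminal kinase, was just past 2-fold at 37.4 against 76.5 TPM and lost its call after rescaling. The surface sensor WSC hit gene04637 was within 2-fold, at 157 against 188 TPM. The branch thus held genes lower at 19 °C, a sensor near equality and a GTPase that was higher.

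In the osmotic branch, a hit to the histidine kinase TcsB (gene06580), a relative of the yeast osmosensor, stood at 15.9 against 74.9 TPM and the MAP kinase kinase PBS2 (gene09940) at 42.9 against 262 TPM. The terminal kinase Hog1 (gene06384), which PBS2 activates, was within 2-fold at 128 against 173 TPM, and the phosphorelay protein between sensor and kinases (gene09507) lay on the other side of equality at 312 against 236 TPM. In the pheromone and filamentation branch, the transcription factor steA (gene09048) stood at 14.6 against 52.2 TPM and the kinase MST11 hit (gene09662) at 5.63 against 18.8 TPM. The gamma subunit of a heterotrimeric G protein (gene07607), which passes on pheromone signals in yeasts, was 2.51-fold higher at 19 °C, at 557 against 222 TPM. Over the 10 tested genes of the MAP kinase cascades, all 10 lay below 0 and 7 were called lower, 5 after rescaling.

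Genes that build the wall were lower in part. FKS1 (gene05336), the catalytic subunit of beta-1,3-glucan synthase and the target of enfumafungin, stood at 104 TPM at 19 °C against 311 TPM at 25 °C, a 2.99-fold difference, and the wild type at day 14 held 211 TPM. The glucanosyltransferase gene05335, which carries the neighbouring gene number and remodels glucan chains, stood at 157 against 349 TPM. Of 22 tested glucan and mannan genes, 7 were lower and none higher, against 21.4% and 10.9% of all tested genes, and after rescaling 5 were lower and 2 higher. The glucanosyltransferases gel1 (gene08720) and gel3 (gene09719) lay above 0, at 40.1 against 23.3 TPM and 61.1 against 52.5 TPM. Chitin genes were lower more often: 12 of 20 tested were lower, none was higher, and 20 had a difference below 0. Chitin synthase D (gene06387) stood at 4.22 against 47.9 TPM, chitin synthase 6 (gene06463) and its neighbour chitin synthase 8 (gene06462) at 52.3 against 164 TPM and 66.7 against 148 TPM, and the regulatory factor gene01719 at 12.3 against 121 TPM. The glycosidase crf1 (gene04932), which links chitin to glucan, stood at 170.2 against 984 TPM. Summed over the chitin list, abundance was 508 TPM at 19 °C against 1264 TPM at 25 °C.

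Regulatory proteins in general leaned the same way. Over the 10 regulation lists, 217 of 632 tested genes (34.3%) were lower and 12 (1.9%) higher, with a median of −0.62. Protein kinases had 50 of 118 lower and 1 higher, chromatin modifiers 37 of 85 lower and 0 higher, and Zn2Cys6 transcription factors, the large fungal family of zinc-cluster regulators, 49 of 186 lower and 5 higher. The Zn2Cys6 share of lower genes is the closest of the 3 to the background of 21.4%. Autophagy kinase atg1 (gene04285) stood at 9.36 against 40.1 TPM, casein kinase I hhp1 (gene02676) at 125 against 607 TPM, and the target of rapamycin kinase tor2 (gene08293) was within 2-fold at 10.98 against 20.2 TPM, as was SCH9 (gene01457), a nutrient-responsive kinase, at 29.9 against 24.2 TPM.

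Named transcription factors gave the following values. White collar 1 (gene00310), a blue-light receptor and clock factor, stood at 3.89 against 24.1 TPM, while the clock protein frequency (gene01018) was within 2-fold at 14.8 against 24.3 TPM and opsin-1 (gene09552) lay above 0 at 1575 against 1056 TPM. The pH-response factor pacC (gene04635) stood at 37.5 against 191 TPM, and the forkhead factors sep1 (gene09198) and FKH2 relative gene03192, which time cell-cycle genes in yeasts, at 12.8 against 81.8 TPM and 9.03 against 43.5 TPM. SKN7 (gene00804), a stress factor of the heat shock factor family, stood at 14.6 against 44.1 TPM, and heat shock factor 2 (gene05637), at 23.7 against 49.3 TPM, lost its call after rescaling. Of the few factors higher at 19 °C, the acuM hit (gene05990), a regulator of gluconeogenesis and iron in Aspergillus, stood at 24.1 against 8.84 TPM and a helix-loop-helix gene without a name (gene08703) at 569.7 against 254 TPM.

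**Figure D4:**
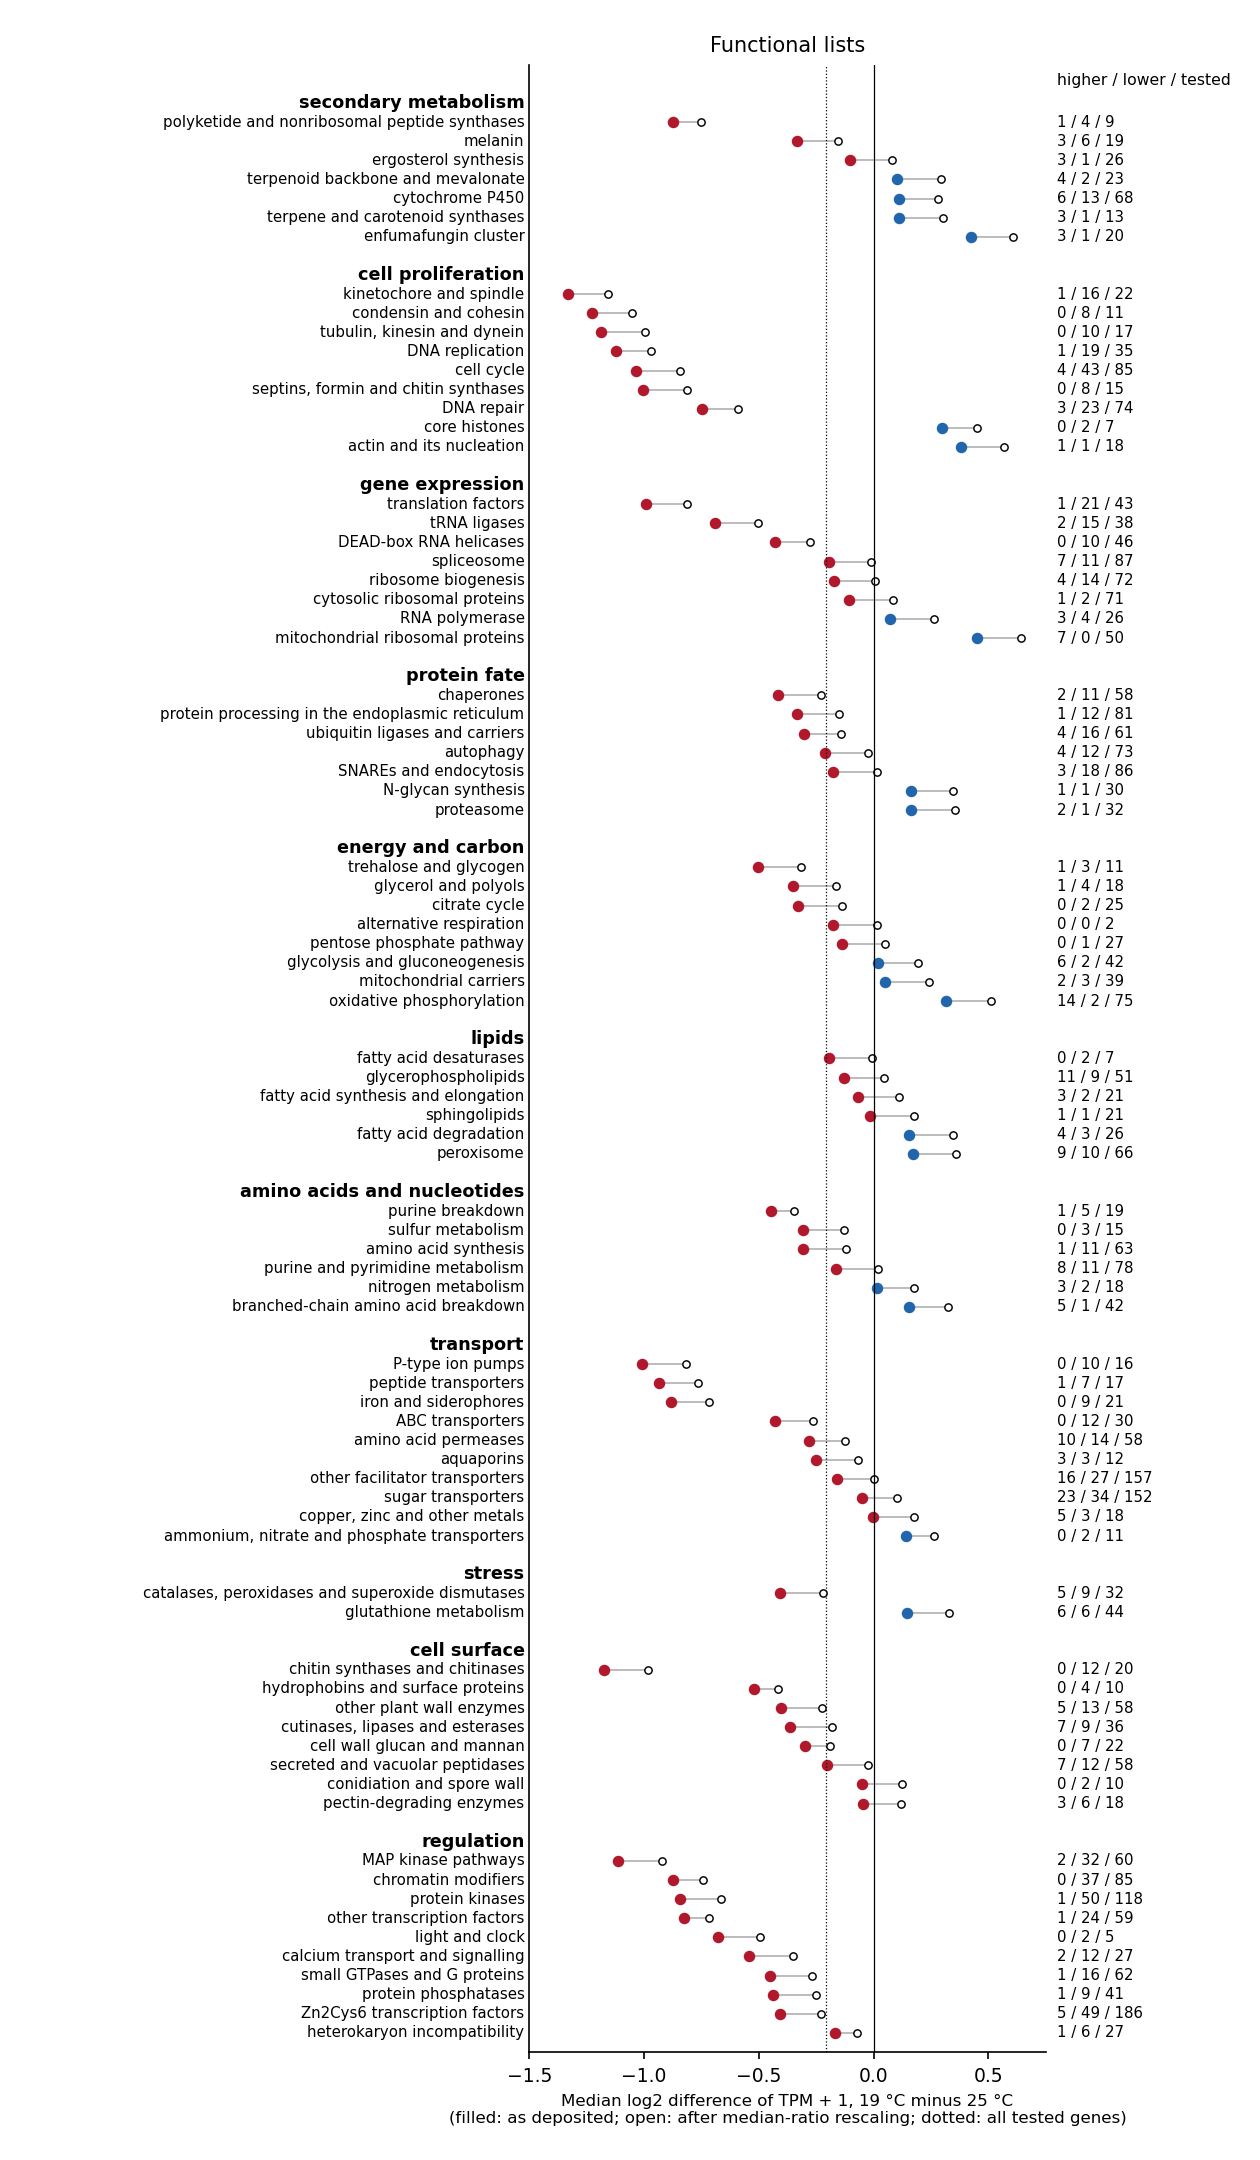
Median log2 difference of TPM + 1 (19 °C minus 25 °C) of 81 functional lists grouped by theme, as deposited (filled; red below 0, blue above) and after median-ratio rescaling (open). Numbers at the right are genes higher, lower and tested; the dotted line is the median of all tested genes, −0.21. The kinetochore and spindle list, made after values had been seen, lies furthest left, at −1.33, and the mitochondrial ribosome furthest right, at 0.45.

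Protein synthesis split by component. Of 71 cytosolic ribosomal protein genes 1 was higher and 2 were lower, with a median of −0.11 that became 0.08 after rescaling, and their sum was 122390.1 TPM at 19 °C against 131964 TPM at 25 °C. The most abundant gene of both libraries was ribosomal protein S25 (gene06776), at 15024 TPM at 19 °C against 17726 TPM at 25 °C. Translation factors behaved otherwise, with 21 of 43 lower and 1 higher, against 21.4% and 10.9% of all tested genes. Their median was −0.99, or −0.81 after rescaling. Elongation factor 2 (gene06319), which moves the ribosome along the message, stood at 131 TPM at 19 °C against 665 TPM at 25 °C, elongation factor 3 (gene06326), a fungal factor that clears spent tRNA, at 193 against 763 TPM, and elongation factor 1-alpha (gene03292), which delivers tRNA, at 2021 against 4928 TPM. The smaller partner elongation factor 1-beta (gene00406) lay above 0, at 1024 against 773 TPM. Transfer RNA ligases were lower in 15 of 38 cases, for example isoleucine ligase (gene05842) at 15.5 against 58.5 TPM, while proline ligase (gene00636) lay above 0 at 22.6 against 15.6 TPM. Elongation factors 2 and 3 and many ligases are large proteins, and the part of size was not tested here either.

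Splicing and ribosome assembly stayed near or below the background shares. Splicing genes numbered 7 higher and 11 lower among 87, and ribosome assembly genes 4 and 14 among 72. Among receptors of nuclear export, exportin-1 (gene04691), which carries proteins and ribosomal subunits out of the nucleus, stood at 24.01 against 158 TPM, and mex67 (gene03700), which exports messenger RNA, at 4.66 against 41.9 TPM. Of the Sm-like proteins that bind U6 RNA, LSm8 (gene00586) stood at 100.3 against 35.3 TPM while LSm6 (gene02439) was within 2-fold at 52.7 against 71.4 TPM.

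Chaperone genes were lower more often than higher, but below the background shares in both directions. Of 58 tested chaperone genes 2 were higher and 11 lower at 19 °C, with a median log2 difference of −0.42. BiP (gene09774), the Hsp70 of the endoplasmic reticulum, stood at 184 TPM at 19 °C against 922 TPM at 25 °C, a 5.01-fold difference, and Hsp90 (gene07764), which matures kinases and receptors, at 1277 against 3133 TPM. An Hsp12 hit (gene05573), a membrane-associated stress protein in yeast, stood at 34.03 against 418 TPM. The small chaperone Hsp30 was present as several genes with different patterns: gene01826 was 9.22-fold higher at 19 °C, at 2523 against 274 TPM, while gene08146 stood at 5916 against 6192 TPM and gene04245 at 2515 against 2468 TPM. The Hsp70 exchange factor fes1 (gene08148) was higher at 19 °C, at 3690.3 against 1222 TPM. All 9 subunits of the TCP1 chaperonin, which folds actin and tubulin, were within 2-fold. In protein degradation, 10 of 12 subunits of the 20S core of the proteasome lay above 0, none was called, and 4 were higher after rescaling. Of the 17 subunits of its 19S regulatory part, 7 lay above 0 and 10 below, with 1 called higher and 1 lower. Ubiquitin ligases and carriers had 4 higher and 16 lower of 61, against 10.9% and 21.4% of all tested genes. The Nedd-4 ligase hit gene09835 stood at 21.4 against 443 TPM; its domain entry is an EF-hand, which binds calcium, so the name is uncertain.

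Energy metabolism had 24 of 223 genes higher and 17 lower, with a median of 0.05. Of 75 genes for the respiratory chain and proton pumps, 14 were higher and 2 lower, against 10.9% and 21.4% of all tested genes, and after rescaling 23 were higher and 1 lower. Within the ATP synthase, epsilon (gene07811) and g (gene04527), both small subunits, stood at 115.8 against 36.95 TPM and 1069.7 against 435 TPM, and the catalytic alpha (gene04947) and beta (gene07881) subunits at 615 against 958 TPM and 580.2 against 774 TPM. The alternative oxidase (gene00570), which passes electrons to oxygen without pumping protons, hardly differed, at 386 against 356 TPM. The plasma membrane proton ATPase (gene03628), which powers nutrient uptake, stood at 899 TPM at 19 °C against 1816 TPM at 25 °C and lost its call after rescaling. In glycolysis and gluconeogenesis, hexokinase-1 (gene07220) stood at 40.6 against 103 TPM and pyruvate kinase (gene07400) at 102 against 173 TPM, while fructose-1,6-bisphosphatase (gene00045) lay the other way at 217 against 116.3 TPM. Alcohol dehydrogenase 1 (gene06782) was among the 15 most abundant genes at 19 °C, at 6449.9 TPM at 19 °C against 3553 TPM at 25 °C. Citrate cycle genes numbered 0 higher and 2 lower of 25.

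Storage carbohydrate and polyol genes went both ways. Trehalose-phosphate synthase (gene00281) was within 2-fold at 191 against 308 TPM, and so was acid trehalase (gene05239) at 18.2 against 36.5 TPM, whereas trehalose phosphorylase (gene00125) was 2.42-fold higher at 19 °C, at 289 against 119 TPM. Glycerol kinase was present as a gene lower at 19 °C (gene00127, 41.1 against 94.9 TPM) and one higher (gene02801, 102 against 20.9 TPM). A probable mannitol dehydrogenase (gene04859) stood at 0.71 against 61.6 TPM. The aquaglyceroporins followed the same split: AQY3 gene02800 stood at 196 against 1.37 TPM and AQY3 gene01923 at 36.5 against 213 TPM.

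Lipid genes did not show a common direction. Of 7 tested desaturases none was higher and 2 were lower at 19 °C, against 10.9% and 21.4% of all tested genes. With so few genes these counts cannot be told from those shares. The acyl-CoA desaturase (gene03493), which puts the first double bond into fatty acids, was abundant and nearly equal, at 2912 TPM at 19 °C against 2993 TPM at 25 °C. The oleate hydroxylase FAH12 hit gene07890, a relative of oleate desaturases, was 3.89-fold lower at 19 °C, at 308 against 1200.5 TPM, and delta 8 desaturase gene01727 stood at 213 against 543 TPM. Among regulators of sterol supply, the SREBP hit (gene00057) stood at 51.4 against 186 TPM and the sterol uptake control protein 2 hit (gene06736) at 53.5 against 349 TPM. Of the sterol pathway itself, 3 of 26 genes (11.5%) were higher, near the share of all tested genes, and 1 was lower. After rescaling 5 were higher and 0 lower. HMG-CoA reductase gene03104, the rate-limiting enzyme of the mevalonate pathway that feeds it and no member of that list, stood at 39.7 against 155 TPM. Squalene synthase erg9 (gene09579) stood at 28.4 against 55.2 TPM, squalene epoxidase erg1 (gene02835) at 142 against 131 TPM, and lanosterol synthase erg7A (gene10489) at 12.8 against 13.2 TPM. Sterol methyltransferase erg6 (gene08313) lay above 0, at 313 against 173 TPM. Phosphatidylserine decarboxylase (gene08121) stood at 17.8 against 6.52 TPM and lysophospholipase 1 (gene09963) at 54.6 against 390.3 TPM.

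The enfumafungin cluster list had 3 genes higher and 1 lower of 20, against 10.9% and 21.4% of all tested genes. Log2 differences in the list ran from −4.295, the gene called lower, to 2.56. Enfumafungin synthase efuA (gene04134), the triterpene cyclase, was within 2-fold at 1049 against 887 TPM, and so were the P450 efuH (gene04132) at 566 against 289.6 TPM, reductase efuL (gene04127) at 93.2 against 105 TPM, acetyltransferase efuC (gene04141) at 30.7 against 36 TPM and the transcription factor efuD (gene04140) at 39.4 against 64.7 TPM. The desaturase efuI (gene04131) stood at 7402 against 2069.9 TPM, a 3.58-fold difference. For efuA, efuH and efuI the mutant at day 14 held more than either day 18 library, at 2829, 981 and 15829 TPM.

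Some stretches of neighbouring gene numbers were called as blocks. Gene numbers appear to follow position, since known cluster members carry adjoining numbers, although no coordinates were used here. Calls here are those before rescaling, by which 10.9% of all tested genes were higher and 21.4% lower. The number of runs that these shares alone would give was not worked out. There were 27 runs of 4 or more consecutive genes called in the same direction, 7 higher at 19 °C with 35 genes and 20 lower with 95 genes. The longest held 10 genes, gene06239 to gene06248, all higher at 19 °C, and read like a diterpene pathway: acetyl-CoA synthetase (gene06239) at 61.8 against 4.06 TPM, HMG-CoA synthase (gene06244) at 42.2 against 1.59 TPM, HMG-CoA reductase (gene06242) at 26.4 against 2.72 TPM, geranylgeranyl pyrophosphate synthase (gene06243) at 60.1 against 2.47 TPM and pimaradiene synthase pbcA (gene06248) at 28.1 against 4.85 TPM. The first 4 supply building blocks and the last closes the rings of a diterpene. Summed over the stretch, abundance was 1119 TPM at 19 °C against 215 TPM at 25 °C, with 371 TPM in the mutant and 474 TPM in the wild type at day 14, most of the wild-type sum being the glutathione transferase gene06245 at 379.6 TPM. The next gene number, the transcription factor pbcR (gene06249), was nearly equal, at 32.3 against 28.6 TPM.

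Other runs were made of different functions. Gene10289 to gene10293, with a tyrosinase ustQ hit (gene10292) and a cyclochlorotine R hit (gene10293), summed to 887 TPM at 19 °C against 0.75 TPM at 25 °C, and 4 of its 5 genes were listed at 0 at 25 °C. Most of the sum came from gene10291, which has no informative name, at 813 TPM. Gene10271 to gene10274 held the mitochondrial manganese superoxide dismutase gene10272, at 2413 against 516 TPM, beside an unnamed gene (gene10271) at 2784 against 406 TPM. The longest run lower at 19 °C was gene04742 to gene04749, 8 genes with a STE50 relative (gene04749) at its end and a sum of 98.5 against 991 TPM. Within it gene04744 lost its call after rescaling, at a log2 difference of −0.96, which breaks the run. In gene07014 to gene07020, 7 genes lower at 19 °C, ammonium transporter 1 (gene07015) stood at 3.77 against 196 TPM and the septation scaffold cdc11 (gene07018) at 1.96 against 9.57 TPM. This run too was broken after rescaling, at gene07016.

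**Figure D5:**
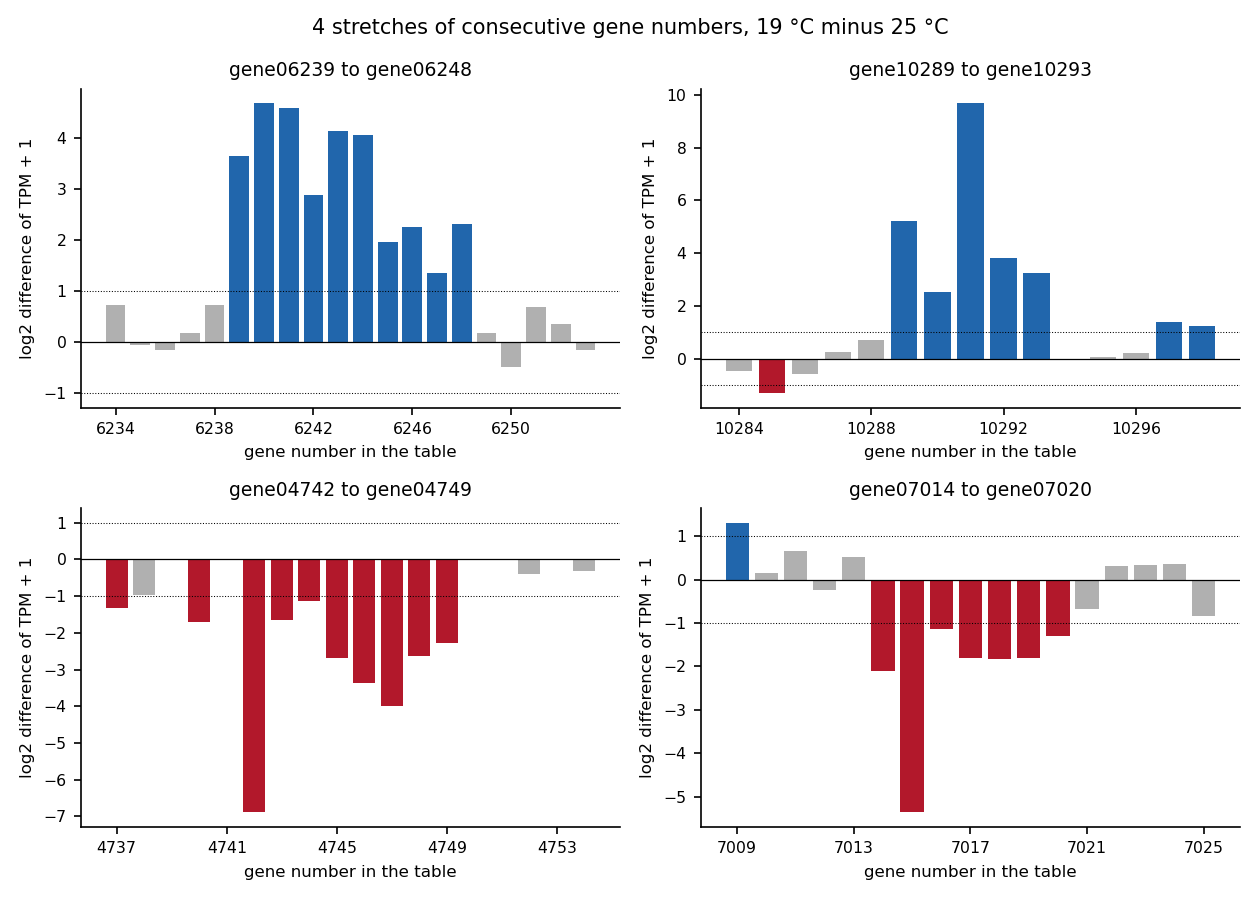
Log2 difference of TPM + 1 (19 °C minus 25 °C) along 4 stretches of consecutive gene numbers with their flanks. Blue bars are higher, red bars lower and grey bars within 2-fold or not tested; dotted lines mark 2-fold, and a missing bar is a gene with no difference. In the first panel 10 adjoining genes are higher while both flanks lie within 2-fold.

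Other secondary metabolism genes went both ways. Of 68 tested P450 genes 6 were higher and 13 lower, against 10.9% and 21.4% of all tested genes. After rescaling the P450 counts became 13 and 10. The P450 himC (gene09700) stood at 414 against 9.5 TPM and virE (gene07980) at 1.03 against 123 TPM. A polyketide synthase PKS1 (gene01398) was lower at 19 °C, at 35.2 against 118 TPM, and the hybrid synthetase TAS1 hit (gene06934) higher, at 11.8 against 0.66 TPM. In melanin-related genes, tyrosinase P (gene08042) stood at 2.17 against 89.02 TPM and scytalone dehydratase (gene06769), an enzyme of melanin synthesis from polyketides, was within 2-fold at 902 against 557 TPM. Adjoining carotenoid genes did not share a call: phytoene desaturase (gene02644) was 3.41-fold higher at 19 °C, at 79.9 against 23.4 TPM, and the cyclase and phytoene synthase gene02643 was within 2-fold, at 61.3 against 77.8 TPM. The sesquiterpene cyclase hit prx2 (gene08812) stood at 0.07 against 15.01 TPM.

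Transporters for nitrogen sources differed in both directions. Ammonium transporter 1 gene07015 was 51.9-fold lower at 19 °C, whereas the ammonium transporter MEP3 (gene00871) was nearly equal, at 154 against 154 TPM. The methionine permease gene03707 stood at 1.96 against 65.6 TPM, the proline permease gene09566 at 4.73 against 82.9 TPM, the dicarboxylic amino acid permease gene07643 at 8.24 against 140.1 TPM and the peptide transporter PTR2 (gene00447) at 28.4 against 398 TPM. Not all permeases followed: amino-acid permease 2 (gene01425) was 31.3-fold higher at 19 °C, at 40.4 against 1.29 TPM. As a list, amino acid permeases had 10 higher and 14 lower of 58, against background shares of 10.9% and 21.4%. In nitrate assimilation the direction was opposite, with nitrite reductase (gene06170) at 28.1 against 1.18 TPM and its neighbour nitrate reductase (gene06169) at 14.7 against 5.83 TPM. Glutamate synthase (gene07398) and NAD-specific glutamate dehydrogenase (gene00257) were lower at 19 °C, at 25.4 against 97.2 TPM and 51.2 against 197 TPM.

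Purine breakdown, which frees nitrogen from nucleobases, was lower at 19 °C in 5 of 19 genes, or 4 after rescaling, near the 21.4% of all tested genes. The pathway regulator hit gene00393 stood at 7.77 against 44.9 TPM, xanthine dehydrogenase (gene06048), which makes uric acid, at 31.1 against 87.1 TPM, and allantoinase (gene00777) at 91.3 against 273 TPM. Uricase (gene01581), between these steps, was abundant and within 2-fold, at 1098 against 1289.7 TPM, and a second allantoinase hit (gene10170) was 2.55-fold higher at 19 °C, so steps of the pathway differed in direction. Sulfate assimilation enzymes were lower in 3 of 15 cases, near the same background. Among them were PAPS reductase (gene02841), which yields sulfite, at 64.2 against 281 TPM and the next enzyme, sulfite reductase beta (gene06875), at 75.5 against 210.2 TPM.

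Sugar transporters numbered 23 higher and 34 lower of 152, close to the background share for lower genes, yet members lay far out in both directions. The ecdD hit gene01802 stood at 4.78 against 305 TPM, another ecdD hit, gene03651, at 87.5 against 6.91 TPM, and the glycerol transporter STL1 hit gene05359 at 6.58 against 109.6 TPM. Metal genes differed between iron and zinc. In the iron list 9 of 21 were lower and none higher, or 8 and 2 after rescaling, among them siderochrome transporter 1 (gene04222), which takes up iron chelates, at 10.5 against 105 TPM, while the iron permease ftrA (gene06901) was within 2-fold at 72.5 against 37.97 TPM. The surface haem-binding protein cfmA (gene05828) stood at 254 against 1445 TPM. Of 9 zinc transporters 4 were higher at 19 °C and none lower. Zinc-regulated transporter 2 (gene09672) stood at 341 TPM at 19 °C against 43.6 TPM at 25 °C and zip2 (gene02485) at 141 against 42.8 TPM, but the 2 zinc-regulated transporter 1 genes were low in both libraries, at 6.11 against 2.04 TPM (gene01756) and 2.49 against 0.64 TPM (gene02549). The copper transporter hit crmD (gene04204) was 3.29-fold higher at 19 °C, at 1162 against 353 TPM. Over the whole list of copper, zinc and other metals, 5 of 18 genes were higher and 3 lower, or 7 and 1 after rescaling.

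Redox enzymes differed member by member. Catalase B (gene05877), which destroys hydrogen peroxide, stood at 4.53 TPM at 19 °C against 557 TPM at 25 °C, a 123-fold difference, and cytochrome c peroxidase (gene04572) at 26.1 against 300.4 TPM. The surface copper-only superoxide dismutase (gene00563) stood at 11.4 against 147 TPM. Both mitochondrial manganese superoxide dismutases lay on the other side, gene10272 at 2413 against 516 TPM and gene09218 at 262 against 129.9 TPM, so superoxide dismutases of the surface and of the mitochondrion differed in opposite directions. The flavohaemoprotein (gene03962), which removes nitric oxide, was 5.55-fold higher at 19 °C, at 5850.4 TPM at 19 °C against 1055 TPM at 25 °C, with 133 and 204 TPM in the day 14 libraries. Peroxiredoxin Asp f3 (gene08267) stood at 4558 against 2263 TPM.

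Secreted enzymes that act on plant tissue had wide gaps in both directions. Pectin lyase gene05692 stood at 4.13 against 533 TPM, and pectin lyase gene03351 at 0.15 against 32.3 TPM, whereas endopolygalacturonase A (gene10082), which cuts another pectin bond, stood at 150.2 against 0.18 TPM. As a list, pectin enzymes had 3 higher and 6 lower of 18, against 10.9% and 21.4% of all tested genes. Among other secreted proteins, the feruloyl esterase gene07281 stood at 64.1 against 765 TPM and the aspartic protease hit gene06783 at 12.2 against 258 TPM. A cyanovirin-N homologue (gene09524), a sugar-binding protein family, stood at 22.6 against 3152 TPM, a 139.6-fold difference. The secreted protein hit gene05522 and the thaumatin-like protein gene06023 were among the 15 most abundant genes at 25 °C, at 317 against 7057 TPM and 1713 against 7901 TPM. In the other direction an unnamed gene, gene05849, ranked 4 at 19 °C with 11177 TPM and ranked 1705 at 25 °C with 93.2 TPM; it held 428 TPM in the mutant and 7241 TPM in the wild type at day 14. Of the 22 genes among the 15 most abundant of either library, 8 were in both sets.

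Counts for other lists were as follows, to be read against 21.4% lower and 10.9% higher among all tested genes. The lower shares of phosphatases (22%) and of SNAREs and endocytosis (20.9%) were near that background, and those of autophagy (16.4%) and endoplasmic reticulum processing (14.8%) below it. Protein phosphatases were lower in 9 of 41 cases and higher in 1, small GTPases and G proteins in 16 of 62 and 1, and genes for SNAREs and endocytosis, which carry out membrane traffic, in 18 of 86 and 3. Autophagy had 12 lower and 4 higher of 73, and protein processing in the endoplasmic reticulum 12 and 1 of 81. Peroxisome genes numbered 9 higher and 10 lower of 66, or 14 and 7 after rescaling. Glycerophospholipid genes numbered 11 and 9 of 51, or 13 and 7 after rescaling, and sphingolipid genes 1 and 1 of 21. Terpene and carotenoid synthases had 3 higher and 1 lower of 13, and neither of the 2 alternative respiration genes was called. Over all 81 functional lists, 62 medians lay below 0 and 19 above. That split depends on the scale: the median of all tested genes was itself −0.21, and 16 list medians changed sign under median-ratio rescaling.

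Some genes for basic machinery of the cell were listed at exactly 0 in the 25 °C library. The eIF3 subunit gene07193 stood at 78.2 TPM at 19 °C, the splicing protein DIB1 (gene07164) at 60.1 TPM, the respiratory complex I subunit gene04334 at 105 TPM and the ATP synthase subunit J (gene02679) at 257 TPM, all listed at 0 at 25 °C. The vacuolar transporter chaperone 2 hit (gene07808) was likewise at 774 TPM and listed at 0. By contrast gene04333, which adjoins gene04334 and has the same best hit, was present in both libraries, at 137 against 154 TPM. In all, 28 genes at 10 TPM or more at 19 °C were listed at 0 at 25 °C and 11 the reverse, so no fold is given for them, and a listed 0 may not mean that no transcript was present. Leaving out every gene listed at 0 in either library left 896 higher and 1872 lower.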

How the data were processed

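Transcript abundance was deposited by the authors as TPM with 2 decimals, in a table that pairs each gene number with best-hit names and pathway terms. Per the labels, libraries were made with an mRNA kit. The sources used here do not name an aligner, quantifier or genome build, and no coordinates or sequences were used. TPM keeps no read depth, so no counting error can be had. From the deposited TPM, the difference of log2(TPM + 1) between the mutant at 19 °C and at 25 °C was computed for genes at 1 TPM or more in at least 1 library (Python 3.11.15, numpy 2.4.6, pandas 2.3.3, matplotlib 3.10.9). A pseudocount of 1 understates folds of low genes, so plain TPM ratios are printed. Genes were called at a difference of 1. With 1 library a group there is no test. The calling step was tested on simulated data.

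Functional lists were patterns on names and pathway terms. Lists and members were chosen with earlier results of these data known. The lists for kinetochore and spindle, actin, calcium, MAP kinases, phosphatases, SNAREs, purine breakdown, terpene synthases and alternative respiration, and corrections of membership, were made after values had been seen. Named genes were the 15 largest and 15 smallest differences among named genes at 10 TPM or more, up to 4 per side in each list, the 15 most abundant genes of each library, all members of lists of 15 or fewer, and runs of 4 or more consecutive gene numbers called in 1 direction. A further 40 genes were chosen after their values were seen, mainly to give the partners of a named gene (among them Hog1, NCS-1, Hsp90, CDK1 and ATP synthase subunits). Best-hit names are assignments by similarity. Alternatives were other pseudocounts, filters, thresholds and scalings.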

Additional observations from a re-analysis of the deposited data

How the results depend on the processing

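No paired analysis was possible because each temperature has 1 library, and for the same reason no library could be left out. The counts of 989 higher and 1942 lower genes became 642 and 1280 with a pseudocount of 5, and 234 and 478 at a 4-fold threshold; the stricter settings call fewer genes by construction. They became 1161 and 2271 with a pseudocount of 0.1, 762 and 1503 with a filter at 10 TPM, 1318 and 1584 after median-ratio rescaling, and 1082 and 1899 without the 20 highest genes. Leaving out genes listed at 0 in either library, chosen after seeing the data, gave 896 and 1872. Lower calls outnumbered higher calls in each of these settings, and the median of all tested genes ran from −0.23 to −0.03. Of the 2931 called genes, 1818 kept their call in all 4 settings of scale and pseudocount. Counting the 81 functional lists and the 2 lists by protein size, 23 had a median of 0.5 or more in size, of which 1 changed sign in any setting: polyketide and nonribosomal peptide synthases went from −0.88 to 0.61 under the filter at 10 TPM, and the cause was not tested. Of the 60 lists with smaller medians, 20 changed sign, so their direction is not read. Small differences of low genes are limited by the unknown depth.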
